A study of Mus musculus with 3 samples.

Results

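Granzymes are serine proteases that killer lymphocytes store in granules and pass into target cells, and killer lectin-like receptors are surface receptors by which natural killer (NK) cells and some T cells read MHC class I and related molecules on other cells. Perforin opens the way for granzymes, which then cleave proteins of the target cell and start its death, and inhibitory and activating receptors together set whether the granules are released. Conventional dendritic cells do not use this granule pathway as their main function, although some members are known outside lymphocytes, such as Klra2 in myeloid cells, Klra17 in plasmacytoid dendritic cells and Gzmb in mast cells. The genes described here were chosen by symbol. They comprise every gene whose symbol begins with Gzm or Klr, and Prf1, Nkg7, Ncr1, Ifng, Cd160, Cd226 and Crtam, where a probe set of the array names that gene alone. This gave 40 of 19938 measured genes, namely 10 granzyme genes, 23 receptor genes and 7 further genes of cytotoxic lymphocytes, each with a probe set of its own.

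The series holds 3 samples of BMDC, dendritic cells grown from mouse bone marrow, which form 1 group, and an Affymetrix whole-transcript array was run on each. The marrow came from strain C57BL/6J, wells received 2000000 cells, and the cultures ran for 9 days with 20 ng/ml of IL-4 and 20 ng/ml of GM-CSF before 150 ng of total RNA was taken for labelling. No other genotype or treatment is named to compare with, and separate mice are not stated as the origin, so differences between arrays may be technical and no test between groups was possible. Values are log2 expression as the authors normalized it. A gene is called detected where all 3 of its values passed a background limit. The limit was set per array at the 95th percentile over 1210 probe sets of smell and pheromone receptors, and lay at 5.54, 5.54 and 5.55. Probe sets bind with different strength, so a call is a rough statement of detection and levels of different genes are not set against each other. Of 8 dendritic cell markers 7 (87.5%) were detected, against 60.5% of all genes. Among them were Itgax (11.91, 11.92 and 11.91 in replicates 1, 2 and 3) and H2-Aa (12.57 in each). Flt3 was not detected (5.47, 5.47 and 5.24).

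Of the 40 genes, 13 (32.5%) were detected, against 60.5% of all genes. Of 48 genes of other tissues, such as liver, muscle and brain, taken as controls that should be silent here, 12 (25%) were detected by the same limit, so a call alone is weak for a member near the limit. The detected genes were 4 of 10 granzyme genes (Gzma, Gzmb, Gzmc and Gzmg), 5 of 23 receptor genes (Klra2, Klra3, Klrb1a, Klrb1c and Klrg2) and 4 of the 7 further genes (Prf1, Nkg7, Ifng and Cd226). Another 2, Klrb1b and Klrb1f, passed the limit in some of the arrays, and 25 passed it in none. With a stricter limit, the 99th percentile, 8 were detected, against 46.2% of all genes. A limit from genes of other tissues left 8 as well, against 45.6% of all genes, and the 90th percentile gave 15, against 68.2%. The 8 at the 99th percentile were Gzma, Gzmb, Gzmc, Klra2, Cd226, Ifng, Nkg7 and Prf1, so that 1 of the 23 receptor genes remained. The members nearest to the limit were Klrb1a, 0.055 log2 units above it in its lowest array, and Klrg2, 0.081 above it, while Gzmm had a margin of -0.080.

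**Figure D1:**
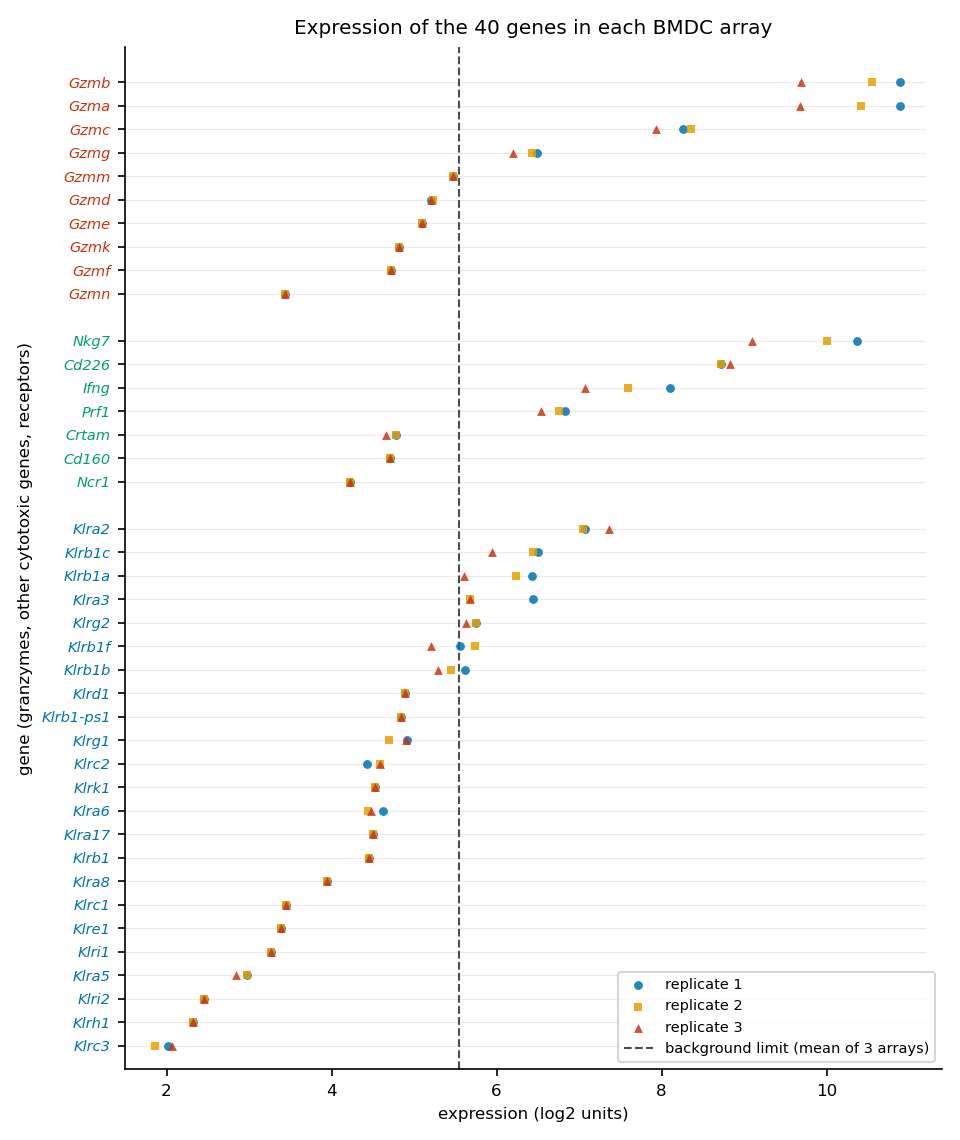
Log2 expression (x axis) of the 40 genes (y axis, granzymes at the top, other cytotoxic genes in the middle, killer lectin-like receptors at the bottom), with 1 point per array. The dashed line is the background limit, and 13 genes lie to its right in all 3 arrays, 5 of them receptor genes.

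The granzyme genes split into 4 that were detected and 6 that were not. Gzma, a protease that cuts after basic residues, had 10.89, 10.42 and 9.68 in replicates 1, 2 and 3 (mean 10.33 ± 0.61, SD, n = 3). Gzmb, which cuts after aspartate and activates Bid and caspases, had 10.89, 10.56 and 9.69 (10.38 ± 0.62, SD, n = 3). In both genes replicate 3 was the lowest, and replicate 1 was at 2.31-fold its value for Gzma and 2.29-fold for Gzmb. As the RNA is that of a whole culture, fewer cells of a type and less RNA per cell cannot be told apart. Gzmc, a granzyme gene next to Gzmb, had 8.26, 8.36 and 7.94 (8.19 ± 0.22, SD, n = 3), so that replicate 3 was again lowest but replicate 2 was highest. Gzmg had 6.49, 6.43 and 6.20 (6.37 ± 0.15, SD, n = 3), again lowest in replicate 3, and it was not detected at the 99th percentile limit.

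Gzmb lies at the end of a run of granzyme genes that neighbour each other in the RefSeq gene order, which is Gzme, Gzmd, Gzmg, Gzmn, Gzmf, Gzmc and Gzmb. Detection did not follow this order as a block, since Gzmb, Gzmc and Gzmg were detected and the 4 others were not. Gzmd had 5.21, 5.23 and 5.21, Gzme had 5.10 in each array, Gzmf 4.72 in each and Gzmn, known from the testis, 3.43 in each. Gzma also neighbours another granzyme gene, Gzmk, which had 4.82 in each array. Gzmm, whose protease cuts after methionine and which lies apart from these runs, had 5.47 in each. The genes of the Gzmb run are closely related, so signal may be shared between their probe sets, and this was not tested.

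Of the further cytotoxic genes, Nkg7, a membrane protein of lymphocyte granules, had 10.38, 10.00 and 9.10 in replicates 1, 2 and 3 (9.82 ± 0.66, SD, n = 3). It spanned 1.28 log2 units, with replicate 1 at 2.43-fold the value of replicate 3. Ifng, the cytokine interferon gamma, had 8.10, 7.59 and 7.08 (7.59 ± 0.51, SD, n = 3), with replicate 1 at 2.03-fold the value of replicate 3. Prf1, which encodes perforin, had 6.83, 6.76 and 6.53 (6.71 ± 0.15, SD, n = 3). Its order over the arrays was that of Gzma and Gzmb, but its replicate 1 was at only 1.23-fold the value of replicate 3. Cd226, a receptor for Pvr and Nectin2 that platelets and monocytes also carry, had 8.72, 8.72 and 8.83 and so was highest in replicate 3. The NK receptor gene Ncr1 (4.23 in each array), Cd160 (4.71 in each) and Crtam, an adhesion receptor of activated lymphocytes (4.79, 4.79 and 4.66), were not detected.

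The sequences just upstream of the annotated starts are given for Nkg7, Gzma, Gzmb and Ifng, the detected members that spanned over 1 log2 unit, and for Klra2, which was highest in replicate 3 and is added for contrast after its values were seen. Each is 250 bases long, 5′ to 3′ on the gene's strand and ending just before the start, from RefSeq on build GRCm38.p6. Capitals mark matches on either strand to the RUNX motif TGTGGT, the AP-1 motif TGANTCA (N is any base), the T-box motif AGGTGT or the TATA box motif written TATAAA, and no matches of different motifs overlapped. The Nkg7 stretch is chr7:43436888-43437137, plus strand. The Gzma stretch is chr13:113100982-113101231, minus strand. The Gzmb stretch is chr14:56262335-56262584, minus strand. The Ifng stretch is chr10:118440796-118441045, plus strand, and the Klra2 stretch is chr6:131247363-131247612, minus strand.
Nkg7: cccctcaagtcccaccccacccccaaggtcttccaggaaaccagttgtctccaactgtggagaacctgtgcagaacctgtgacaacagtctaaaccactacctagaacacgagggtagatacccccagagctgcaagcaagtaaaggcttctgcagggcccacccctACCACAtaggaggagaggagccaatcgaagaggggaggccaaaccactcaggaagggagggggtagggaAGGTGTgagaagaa
Gzma: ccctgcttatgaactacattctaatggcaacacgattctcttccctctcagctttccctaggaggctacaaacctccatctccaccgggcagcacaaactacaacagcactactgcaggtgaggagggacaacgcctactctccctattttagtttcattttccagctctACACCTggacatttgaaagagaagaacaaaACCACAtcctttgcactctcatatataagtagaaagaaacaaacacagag
Gzmb: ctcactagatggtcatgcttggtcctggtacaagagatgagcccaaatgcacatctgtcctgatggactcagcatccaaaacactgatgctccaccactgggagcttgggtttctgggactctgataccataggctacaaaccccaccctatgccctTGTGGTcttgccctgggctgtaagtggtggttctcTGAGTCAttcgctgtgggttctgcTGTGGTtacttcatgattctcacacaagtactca
Ifng: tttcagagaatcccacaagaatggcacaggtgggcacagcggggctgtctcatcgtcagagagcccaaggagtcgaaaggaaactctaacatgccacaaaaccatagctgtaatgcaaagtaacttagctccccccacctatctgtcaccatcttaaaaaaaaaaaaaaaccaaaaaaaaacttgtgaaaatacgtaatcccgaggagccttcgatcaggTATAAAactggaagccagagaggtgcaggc
Klra2: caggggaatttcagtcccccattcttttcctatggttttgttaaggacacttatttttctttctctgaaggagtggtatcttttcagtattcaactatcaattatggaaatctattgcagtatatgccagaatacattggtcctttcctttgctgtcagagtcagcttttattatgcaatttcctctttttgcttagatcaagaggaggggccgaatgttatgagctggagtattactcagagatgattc

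RUNX factors, AP-1 and T-box factors such as Tbx21 and Eomes are known regulators of cytotoxic lymphocyte genes. Gzmb held the RUNX letters at 93 and 34 bases before its start and the AP-1 letters at 58 bases. Gzma held the RUNX letters at 50 bases and the T-box letters at 80 bases before its start, both on the opposite strand. Nkg7 held the RUNX letters at 83 bases and the T-box letters at 14 bases, and Prf1, whose sequence is not shown, at 130 and 24 bases. Ifng held the TATA letters alone, at 30 bases, and Klra2 none of the 4 motifs. The search for members left out chromosome 18, where Cd226 lies, while the count over all stretches below had no such exclusion. A stretch was thus available for 12 of the 13 detected members. Of these, 8 held the RUNX letters, 3 the T-box letters, 2 the TATA letters and 1 the AP-1 letters. Among 32851 stretches of the same length in the table, 14.1% held the RUNX letters, 11.8% the T-box letters, 12.4% the TATA letters and 6.75% the AP-1 letters. Of the 22 other members with a stretch, none of which was detected in all 3 arrays, 11 held the RUNX letters, 3 the T-box letters, 7 the TATA letters and 0 the AP-1 letters, so the RUNX letters were common in both sets of members. Related genes share promoter sequence and are no independent cases, and a match of letters shows no binding.

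**Figure D2:**
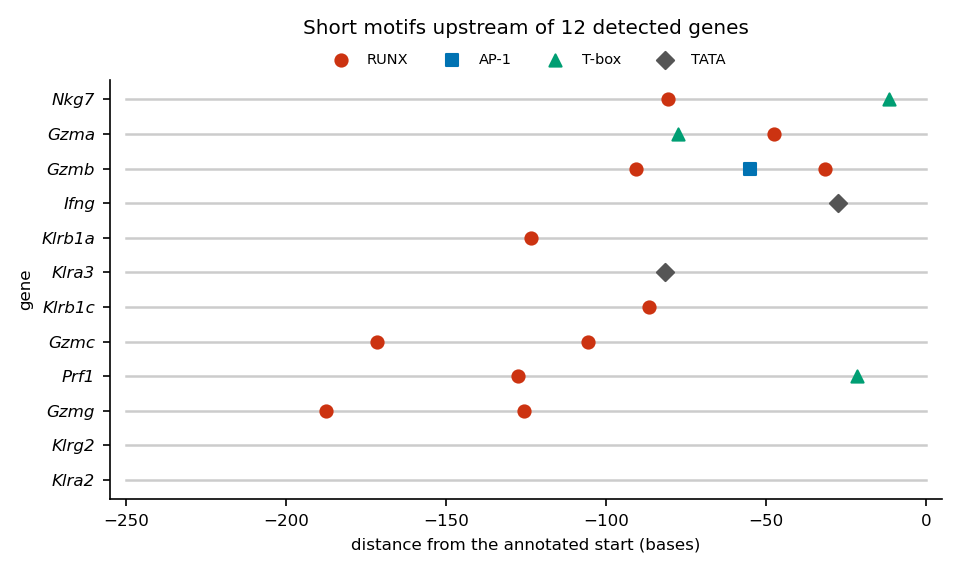
Positions of 4 short motifs (colours) within 250 bases upstream of the annotated start (x axis, bases) for 12 detected genes (y axis, ordered by the difference between replicates 3 and 1). RUNX letters are present in 8 genes, and Klrg2 and Klra2 hold none of the 4 motifs.

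Among the receptor genes are those of the Klrb1 group, which encode NKR-P1 receptors. Klrb1c, the gene of the NK marker NK1.1 in this strain, had 6.51, 6.45 and 5.94 in replicates 1, 2 and 3 (6.30 ± 0.31, SD, n = 3). Klrb1a, which encodes a related activating receptor, had 6.43, 6.24 and 5.61 (6.09 ± 0.43, SD, n = 3), with replicate 1 at 1.77-fold the value of replicate 3. Both were detected, both were lowest in replicate 3, and neither was detected at the 99th percentile limit. Klrb1b, an inhibitory receptor for Clec2d, had 5.62, 5.45 and 5.29 and passed the limit in replicate 1 alone. Klrb1f, a receptor for Clec2i, had 5.56, 5.74 and 5.21 and passed it in replicates 1 and 2. Thus all 4 were lowest in replicate 3, against 20.2% of detected genes, though Klrb1b and Klrb1f were not detected in all arrays. As related genes they may share signal between their probe sets, and this was not tested. Klrb1 (4.46) and the pseudogene Klrb1-ps1 (4.84) were identical in the 3 arrays and below the limit.

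The Klra genes encode the Ly49 receptors for MHC class I. Klra2 had 7.07, 7.05 and 7.36 in replicates 1, 2 and 3 (7.16 ± 0.17, SD, n = 3), with replicate 3 the highest at 1.22-fold the value of replicate 1. It was the only receptor gene still detected at the 99th percentile limit. Klra3, an inhibitory receptor, had 6.44 in replicate 1 and 5.68 in both other arrays (5.94 ± 0.44, SD, n = 3), so that its span rested on replicate 1. Klra6 (4.63, 4.44 and 4.48), Klra17 (4.50 in each array), Klra8, an activating receptor for a protein of mouse cytomegalovirus (3.94 in each), and Klra5 (2.97, 2.97 and 2.85) were not detected. Another 4 probe sets name 3 to 7 Ly49 genes each and so belong to no gene in these counts. Their means were 4.35, 4.42, 4.74 and 4.93, all below the limit in every array, and 9 Ly49 genes or pseudogenes, among them Klra1, Klra4, Klra7 and Klra9, were named in such probe sets alone.

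None of the 5 genes of the CD94 and NKG2 receptors was detected. Klrd1, the CD94 chain that pairs with NKG2 chains, had 4.89 in each array, and Klrk1, the activating receptor NKG2D, had 4.52 in each. Klrc1, the inhibitory NKG2A chain, had 3.45 in each, Klrc2 had 4.43, 4.59 and 4.59, and Klrc3 had 2.02, 1.86 and 2.07. Klrg2 was detected with 5.75, 5.75 and 5.63 (5.71 ± 0.07, SD, n = 3), close to the limit. Klrg1, an inhibitory receptor for cadherins, had 4.91, 4.70 and 4.90 and was not detected. Klre1 (3.39), Klri1 (3.27), Klri2 (2.45) and Klrh1 (2.32) were identical in the 3 arrays and far below the limit. Klre1 is known to pair with Klri1 or Klri2.

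The detected members differed between arrays more often than detected genes in general. Of the 13, 10 were lowest in replicate 3, against 20.2% of all detected genes, and 9 were highest in replicate 1, against 15.6%. Both held for 8 of them, against 10.2%, while 2 (Cd226 and Klra2) were highest in replicate 3, against 19.4%. The 3 exceptions to the first count were Klra2, Cd226 and Klra3. Genes with 3 identical values stand in these shares, and in the 20.2% given for lists below, though they cannot be lowest or highest. Of the 6456 detected genes without 3 identical values, 2443 were lowest in replicate 3 and 1877 were highest in replicate 1. Both held for 1233, and 2339 were highest in replicate 3. Spans over 0.5 log2 units occurred in 7 of the 13, against 2.61% of detected genes, and spans over 1 unit in 4 of the 13, against 0.497%. Of the 12068 detected genes, 18 had a larger span than Nkg7, 23 than Gzma, 24 than Gzmb and 51 than Ifng. Genes below the limit in any array are left out of this ranking. Among those left out, Lcn2, Cpa3, Ly6g, Retnlg and Mcpt8 spanned 2.85, 2.16, 1.93, 1.80 and 1.29 log2 units. The median span of the 13 was 0.56 log2 units, against 0.0096 over all detected genes. That comparison is limited by ties, since 46.5% of detected genes had 3 identical values, and the reason for the ties is not known. Over the 6456 detected genes without 3 identical values the median span was 0.087 log2 units. Identical values were found in none of the 13 and in 18 of all 40 members, against 57.1% of all genes. Without replicate 3 the median span fell to 0.14 over the 14 members then detected.

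**Figure D3:**
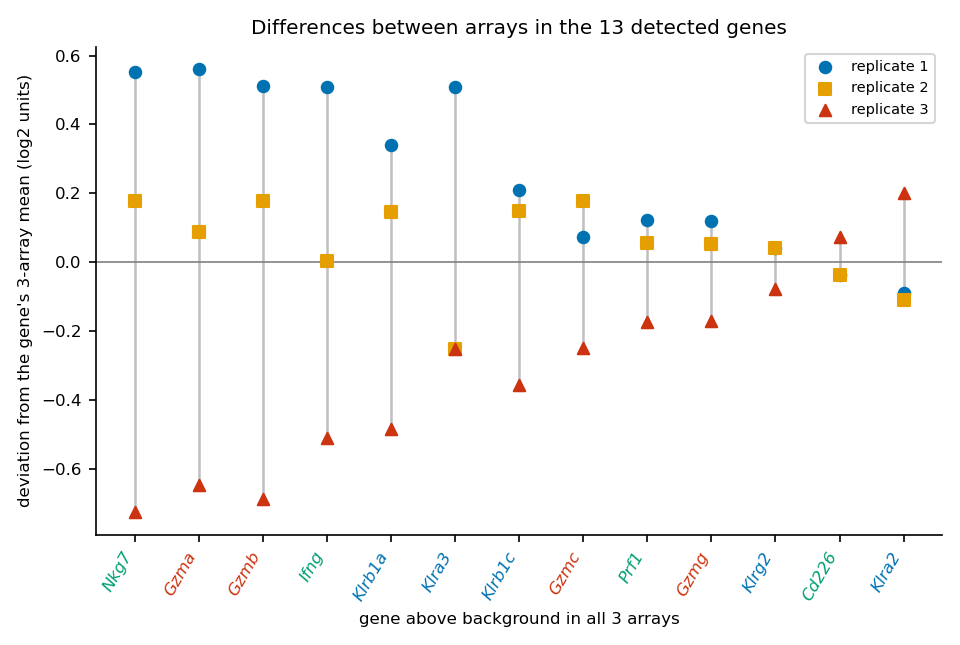
Deviation of each array from the gene's own 3-array mean (y axis, log2 units) for the 13 detected genes (x axis, ordered by replicate 3 minus replicate 1). Replicate 3 is the lowest array in 10 genes, shares the lowest value with replicate 2 in Klra3, and is the highest in Cd226 and Klra2.

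**Figure D4:**
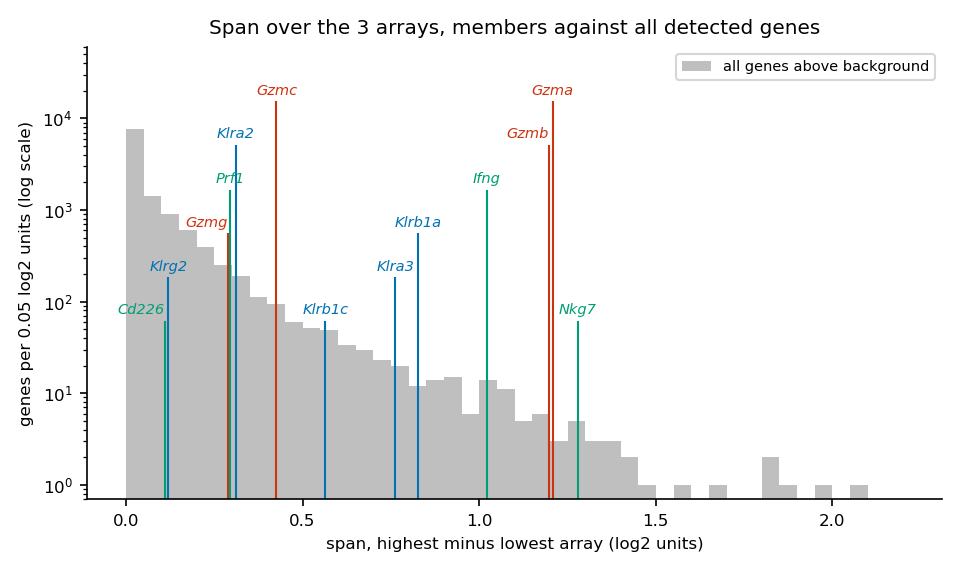
Distribution of the span over the 3 arrays (x axis, log2 units) for all 12068 detected genes (grey, gene counts on a log axis), with the 13 detected members as coloured lines whose height has no meaning. Nkg7, Gzma, Gzmb and Ifng lie beyond 1 log2 unit and Cd226 and Klrg2 at 0.11 and 0.12.

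Some markers of other cell types differed between arrays as well. The lists here and below were chosen with earlier results of these data known, so their shares are a description and no independent support. Of 10 NK cell markers outside the members, 6 (60%) were detected, against 60.5% of all genes. Of these 6, 5 were lowest in replicate 3, against 20.2% of detected genes. The linear values of all 10 summed to 1234, 1104 and 808 in replicates 1, 2 and 3. The list is not particular to NK cells, since Eomes is also a factor of CD8 T cells. Eomes and Il18rap stand in this list and in the pathway lists below. Fasl, a death ligand of killer cells, had 7.09, 6.94 and 6.08 and Cd7 had 6.87, 6.60 and 5.89, both lowest in replicate 3. Of the other NK genes Cd244a, a receptor of NK cells, had 6.81, 6.53 and 6.35, while Itga2 (4.93, 4.93 and 4.89) and the chemokine gene Xcl1 (5.47 in each) were not detected, nor were Ncr1 and Klrd1 above. Sh2d1b1, chosen after its values were seen like Samd3, was detected and differed little (7.65, 7.71 and 7.65). Samd3 (3.81 in each) was not detected. Of 14 measured T cell markers 13 (92.9%) were detected, against 60.5% of all genes. Of these 13, 9 were lowest in replicate 3, against 20.2% of detected genes. All 14 summed to 3065, 2486 and 1820. Cd3d, a chain of the T cell receptor complex, had 6.90, 6.47 and 6.10, Cd28 had 7.46, 6.99 and 6.38 and Thy1 had 8.27, 7.98 and 7.19. Cd3g spanned 1.21 log2 units with 8.65, 8.22 and 7.44, and Cd8a spanned 1.18 with 9.37, 8.87 and 8.18. Not every T cell marker was lowest in replicate 3. Cd6 and Lat, chosen after their values were seen like the next gene, were identical in the 3 arrays, and Cd4 had 6.62, 6.38 and 6.57. Cd2 (5.62, 5.31 and 5.09) passed the limit in replicate 1 alone. The 40 members summed to 7401, 6053 and 4171, mostly from a few strong genes such as Gzma, Gzmb and Nkg7. Of this the 10 granzyme genes gave 4370, 3468 and 2147 and the 7 further genes 2211, 1821 and 1301. The 23 receptor genes gave only 820, 764 and 723. The part of NK and T cells in the result was not tested.

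The sums of some other lists were also lowest in replicate 3, and their part in the result was not tested either. For the counts below, 60.5% of all genes were detected and 20.2% of detected genes were lowest in replicate 3. The 11 mast cell and basophil markers summed to 848, 956 and 461, with 4 detected. Of the 4 detected, 3 were lowest in replicate 3, among them Prss34 (7.75, 8.24 and 6.38). Tpsb2 was detected with 5.78 in each array. Of the others, the protease genes Mcpt8 (5.88, 5.97 and 4.68) and Cpa3 (7.38, 7.54 and 5.38) passed the limit in replicates 1 and 2. Fcer1a, a chain of the IgE receptor, had 5.08, 5.01 and 4.02 and passed it in none. Kit (5.22 in each) and Mcpt4 (4.23 in each), chosen after their values were seen, were not detected. The sum of this list was highest in replicate 2 and lowest in replicate 3, an order shared among the detected members by Gzmc alone. Neutrophil markers, with 4 of 10 detected, summed to 826, 671 and 405. The sum moved mainly with Lcn2 (7.98, 6.69 and 5.12), Retnlg (7.35, 7.11 and 5.55) and Ly6g (6.73, 6.80 and 4.86), which passed the limit in replicates 1 and 2 alone. Over the 4 detected markers the mean deviation of replicate 3 was -0.07, and S100a9 and Camp were identical in the 3 arrays. All 9 measured proliferation genes were detected and lowest in replicate 3, with sums of 2405, 2014 and 1412, among them Rrm2, which makes deoxynucleotides (8.47, 8.04 and 7.38), and Mcm5, a replication helicase subunit (7.86, 7.66 and 7.13). Dendritic cell markers summed to 22364, 22918 and 22684, mostly from a few strong genes, while Ccr7, a homing receptor, was lowest in replicate 3 (10.15, 10.50 and 9.74) and Clec9a, chosen after its values were seen, was highest there (9.27, 9.38 and 9.70). Housekeeping genes summed to 27039, 26884 and 26657. All 10 measured were detected and 4 of the 10 were lowest in replicate 3, with a largest span of 0.14 log2 units. Of 6 plasmacytoid dendritic cell markers 3 were detected and their sums were 855, 862 and 872, Siglech, Ccr9 and Spib being undetected. For innate lymphoid cells 4 of 5 markers were detected and the sums were 3558, 3723 and 3874, mostly from Il7r (11.63, 11.71 and 11.79), and for B cells 2 of 6 were, with sums of 218, 218 and 204.

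The genes through which the pathway works were given by 8 lists with 83 genes, of which 72 had a probe set of their own. Of these 72, 65 (90.3%) were detected, against 60.5% of all genes. Their median span was 0.036 log2 units, against 0.0096 over all detected genes. Of the 65, 24 were lowest in replicate 3, against 20.2% of detected genes. All 6 measured genes of granzyme maturation and storage were detected, and 0 of them were lowest in replicate 3. The median span of these 6 was 0.032. Ctsc, the protease that trims granzymes to their active form, had 11.70, 11.63 and 11.63, Ctsh, which can do the same for Gzmb, 10.59, 10.63 and 10.77, and Srgn, the proteoglycan that holds granzymes in the granule, 12.80 in each array. All 8 genes of granule release were detected as well, and 2 of them were lowest in replicate 3. Among the 8 were Rab27a (6.24, 6.16 and 6.02), Unc13d (7.21 in each) and Stx11 (7.27, 7.27 and 7.08), which act in docking and fusion. These proteins also serve lysosomes and secretion in myeloid cells, so their detection is not particular to killing.

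Most inhibitors and targets of granzymes were detected. Of 5 inhibitor genes 4 (80%) were detected, against 60.5% of all genes. Of these 4, 3 were lowest in replicate 3, against 20.2% of detected genes, and the largest span was 0.08 log2 units. Serpinb9, the inhibitor of Gzmb, had 8.65, 8.65 and 8.63, and Serpinb9b, reported to inhibit Gzmm, had 10.07, 10.07 and 10.06. Serpina3n, an extracellular inhibitor of Gzmb, had 6.14, 5.46 and 5.64 and passed the limit in replicates 1 and 3. All 7 measured substrate genes were detected, against 60.5% of all genes. Among the 7 were Bid (7.41), Dffa, which restrains a DNase (7.23), and Gsdme, a pore-forming protein (6.24), each identical in the 3 arrays. Of the others Hmgb2, a chromatin protein (7.49, 7.43 and 7.20), and Nme1, a nucleoside diphosphate kinase (7.67, 7.55 and 7.40), chosen after their values were seen, were lowest in replicate 3, with spans near those of Gzmg and Prf1.

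All measured receptor adaptors and most measured ligands were detected, while most of the receptors were not. All 11 adaptor and signalling genes were detected, against 60.5% of all genes. Of these 11, 5 were lowest in replicate 3, against 20.2% of detected genes, and the largest span was 0.29 log2 units. Tyrobp, the adaptor of activating Ly49 receptors, had 11.95, 11.96 and 11.82, Hcst, the adaptor of Klrk1, 7.17 in each array and Fcer1g 12.08, 12.02 and 12.04, all of which myeloid receptors use too. Of 11 measured ligand genes 8 (72.7%) were detected, against 60.5% of all genes. Of those 8, 0 were lowest in replicate 3, against 20.2% of detected genes. Clec2d, the ligand of Klrb1b, had 10.13 in each array. The Klrk1 ligand genes H60b (4.97 in each) and Raet1d (4.49, 4.20 and 4.73) and the lectin gene Clec2g (4.63, 4.63 and 4.61) were not detected.

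Some genes of cytokine receptors and transcription factors differed between arrays as members did. Of 12 measured genes of cytokine receptors and signals 10 (83.3%) were detected, against 60.5% of all genes. Of the 10, 7 were lowest in replicate 3, against 20.2% of detected genes. Il2rb, a receptor chain for IL-2 and IL-15, spanned 1.38 log2 units with 9.81, 9.47 and 8.42, in the same order as Nkg7. Il12rb2, a chain of the IL-12 receptor, had 8.23, 8.12 and 7.46, its signal transducer Stat4 9.06, 9.06 and 8.41 and Il2ra 7.57, 7.46 and 7.05. Il15 had 7.68, 7.79 and 7.68. The IL-18 receptor genes Il18r1 (4.68 in each) and Il18rap (5.62, 5.62 and 5.38) were not detected in all arrays. Of 12 transcription factor genes 11 (91.7%) were detected, against 60.5% of all genes. Of the 11, 5 were lowest in replicate 3, against 20.2% of detected genes. The median span of the 11 was 0.025 log2 units, and 4 of them, Runx3, Zbtb16, Rora and Prdm1, were identical in the 3 arrays. Id2 was highest in replicate 3 (11.72, 11.72 and 11.75) and Nfil3 differed little (9.88, 9.89 and 9.88). Ikzf2 was lowest in replicate 3 with a span of only 0.025 log2 units (7.70, 7.70 and 7.68). The genes from Runx3 to Ikzf2 are given to complete the list, after their values were seen. Eomes, a T-box factor of NK and CD8 T cells, had 8.55, 8.31 and 7.53, Tbx21, the factor T-bet, 7.22, 7.08 and 6.72, Ets1 7.47, 7.27 and 6.71 and Gata3, which acts in T and innate lymphoid cells, 6.82, 6.92 and 6.39. Tox (5.20 in each) was not detected.

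**Figure D5:**
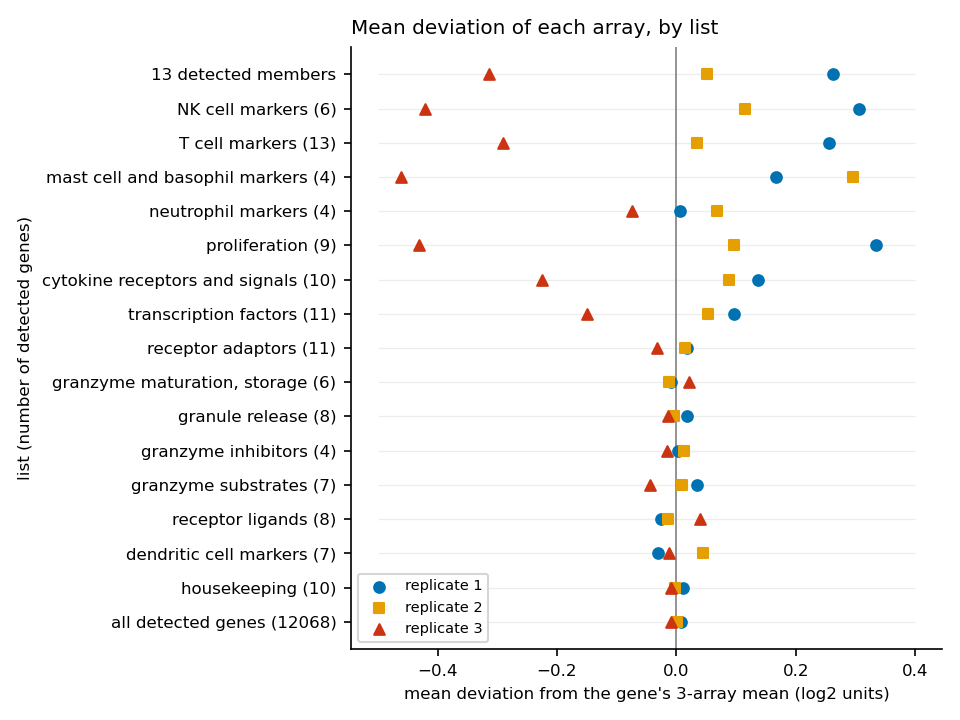
Mean deviation of each array from the genes' own 3-array means (x axis, log2 units), averaged over the detected genes of each list (y axis, number of detected genes in brackets). Replicate 3 lies at -0.31 for the 13 members, -0.42 for NK cell markers, -0.29 for T cell markers, -0.43 for proliferation genes and -0.46 for mast cell and basophil markers, and at -0.01 for housekeeping genes.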

How the data were processed

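Total RNA of 3 BMDC samples was measured on Affymetrix whole-transcript arrays. The authors deposited log2 values, for which the submitters' processing notes name RMA, while for the software and the genome build nothing is stated in the labels or file headers. As a method, RMA corrects background, quantile normalizes the arrays and summarizes probes by median polish. The array medians were 5.91, 5.91 and 5.91, and the values were not centred. Of 35556 probe sets, the platform annotation gives 21789 a single gene and 1621 more than one, and lacks 12146. Each gene took its probe set with the highest mean, and each of the 40 members had 1. All 40 matched a RefSeq gene by Entrez identifier, with 0 changed symbols.

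Detection used the limit given above. Spans, counts and sums of linear values (2 to the power of the log2 value) were computed in Python 3.11.15 with pandas 2.3.3. The detection call, the span and the finding of the lowest array were tested on simulated data without tied values. The sums were not tested in this way. With 3 arrays in 1 group no test was run, and the number of arrays limits the precision. Promoters came from a RefSeq table on GRCm38.p6, and motifs were searched on both strands. The members and lists were chosen with earlier results of these data known. All members are named. Of each list the text takes genes from the first 3 measured, up to 4 with the largest span over 0.5 log2 units and up to 3 whose call went against their list. Alternatives covered the limit, the probe set rule, the scaling and each replicate.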

Additional observations from a re-analysis of the deposited data

How the results depend on the processing

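Detection of the weaker members depends on the limit. At the 99th percentile 8 members, 3 granzyme genes and 1 receptor gene were detected, and 6 of the 8 were lowest in replicate 3. With the 95th percentile of the silent tissue genes (genes of liver, brain, muscle and other tissues) the counts were also 8, 3, 1 and 6, against 45.6% of all genes. Both settings lost Gzmg, Klra3, Klrb1a, Klrb1c and Klrg2, and raised limits are the cause by construction. With the 90th percentile 15 members were detected, against 68.2% of all genes. Calling on the mean, averaging probe sets, using probe sets that name several genes, centring on housekeeping genes and normalizing again each left the 13 detected members. Centring and normalizing again each put 11 of the 13 lowest in replicate 3, since the tie of Klra3 was broken, and under both Cd226 and Klra2 stayed higher in replicate 3 than in replicate 1. The genes of the pathway lists detected ranged from 58 to 68 over these settings. Leaving out 1 replicate at a time gave 13 to 14 members, 4 to 4 granzyme genes, 5 to 6 receptor genes, 65 to 66 pathway genes and, where replicate 3 was kept, 10 to 11 members lowest there. The median span ranged from 0.14 without replicate 3 to 0.56 without replicate 2. Without replicate 3 no count of members lowest there exists. No paired analysis was possible because the samples form 1 group. Near the limit, signal over background limits what a call can show.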
